A study of Mus musculus with 6 samples.

Results

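The 36 genes described here belong to the serum response factor (SRF) and actin cytoskeleton group. They were chosen by gene symbol from the 19928 genes of the deposited table, with the lower FPKM of Srf and of several actin genes in one group already in view. FPKM is a gene's fragment count scaled for transcript length and library size. The 6 samples were adipose tissue of KM mice. Of these, 3 were controls, whose diet is labelled only as control, and 3 came from mice fed RAS, the root drug radix Angelica sinensis, at 10.00 g/kg BW (body weight). The title speaks of a high-fat diet; the labels do not say which groups received it. Fat depot, sex, age and sampling time were not given in the sources used here, nor whether a sample came from a single mouse or several. The p-values below therefore measure only how these samples spread, which may be technical. Since the difference between groups chose the members, that difference is given below as a description and not as a test.

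SRF is a transcription factor that binds a short DNA element, the CArG box, in front of actin genes and many genes of the contractile and adhesive apparatus. Its coactivators MRTF-A and MRTF-B, encoded by Mkl1 and Mkl2, are held in the cytoplasm by actin monomers and reach the nucleus when monomers are built into filaments. In fat, falling SRF and MRTF activity accompanies the rounding of precursor cells as they become adipocytes, while mature adipocytes keep a cortical actin layer around the lipid droplet and vessel smooth muscle carries a dense contractile apparatus.

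The libraries held 14.4 to 15.7 M assigned reads, read off the step of 1 read in the deposited count signal, and 12462 to 12641 genes at 1 FPKM or more. The fat cell genes Adipoq (2357 to 3460 FPKM) and Plin1 (503 to 917 FPKM) were high in all 6 libraries. Of the 12606 genes with a mean of at least 1 FPKM, 0 (0.0%) had an adjusted p under 0.05 in limma, and the smallest adjusted p was 0.138. At an unadjusted p under 0.05, 808 genes were lower and 486 higher with RAS; the split was 623 and 684 with median-ratio size factors, 660 and 650 after quantile normalization, and 667 and 636 on the scaled count signal. Of the other cell type signals, skeletal muscle genes were highest in control 1, liver genes in control 3 and brown fat genes in RAS 3.

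Most of the 36 genes lay lower in the RAS samples. The largest differences were those of the podosome scaffold gene Sh3pxd2b, of Srf itself, of Flna and of the actins Actg1 and Actb, while Actn4, Arpc5 and Pdlim7 were nearly level. All 36 passed the minimum of 1 FPKM, so the filter removed none. The mean was lower with RAS for 35 of 36 (97.2%), against 57.0% of all genes tested, and higher for Capg alone. The median log2 difference of the members, RAS minus control on the log2(FPKM + 1) scale, was -0.33, against -0.04 for all genes tested. In 17 of 36 (47.2%) every RAS value lay below every control value, against 12.5% of all genes tested; the reverse order held in 0 members, against 5.42%. In the limma fit 13 members (36.1%) had an unadjusted p under 0.05 on the lower side, against 6.41% of all genes, and 0 on the higher side, against 3.86%. None passed after Benjamini-Hochberg adjustment over all genes, and the members' adjusted p in limma ran from 0.174 to 0.922. These shares describe the list; since it was put together with this contrast known, nothing is read from their distance to the background. Tissue RNA cannot tell fewer cells of a type from less RNA per cell.

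**Figure D1:**
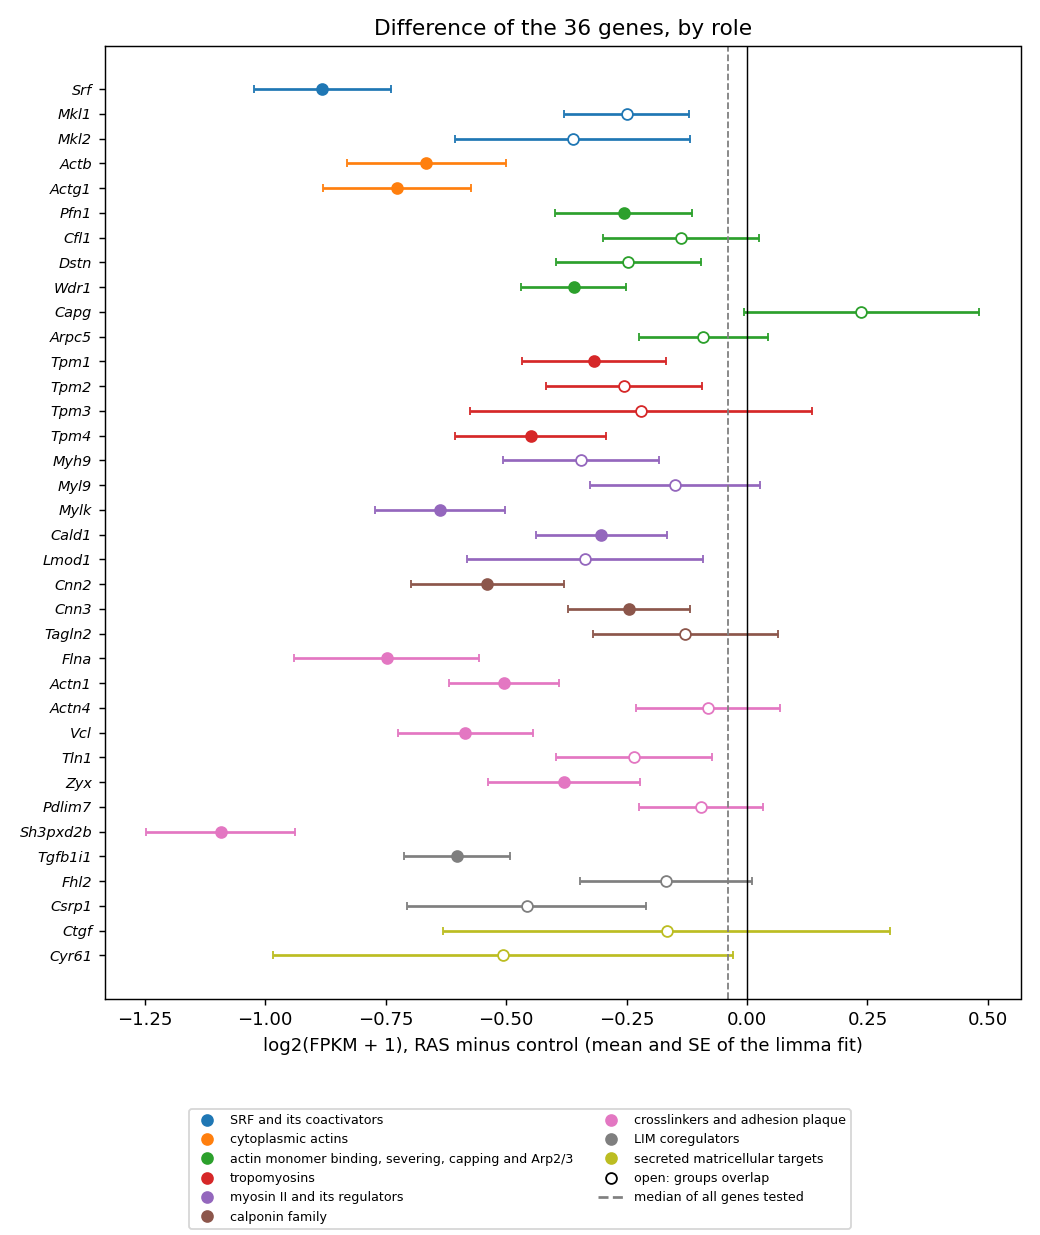
Difference in log2(FPKM + 1), RAS minus control, of the 36 genes with the SE of the limma fit (3 samples per group), grouped by role; filled points mark the 17 genes whose groups do not overlap and the dashed line the median of all genes tested, -0.04. Points lie left of 0 for 35 genes, from -1.09 for Sh3pxd2b, and right of it for Capg at 0.24.

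Srf, on chromosome 17 (46546839 to 46556162), was the transcription factor of the group and among its largest differences. Its FPKM was 19.0, 18.8 and 15.2 in controls 1 to 3 and 8.37, 8.34 and 10.7 in RAS 1 to 3. The groups were apart, with the lowest control well above the highest RAS sample. The RAS mean of 9.14 ± 1.36 FPKM stood 48.2% below the control mean of 17.7 ± 2.15 (SD, n = 3 each, as in all group means below), a log2 difference of -0.88 ± 0.14 (SE). Its coactivators differed less. Mkl1 was at 6.07, 6.51 and 5.34 FPKM in control and 4.78, 5.65 and 4.21 with RAS (log2 -0.25 ± 0.13). Mkl2 was at 6.58, 8.17 and 6.08 FPKM in control and 7.58, 5.23 and 3.34 with RAS (log2 -0.36 ± 0.24, but -0.11 without RAS 3 and -0.60 without RAS 1). For both coactivators the groups overlapped, and RAS 3 held the lowest value. Mkl1 shares its locus in the table with Sgsm3.

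The promoters of the members were searched for the CArG box, since it is the element SRF binds. The RefSeq promoter table (GRCm38.p6) held 33 of the 36 genes, and the 250 bases before each start site were read. A CArG box stood in 6 of the 33 (18.2%), against 143 of 9649 (1.48%) of the tested genes with a promoter and 7 of 110 (6.36%) of the other pathway genes introduced below. The box reads the same on both strands in its consensus form, so both were covered, and a list named for SRF favours such genes by design. The 4 promoters below belong to the members with a box whose groups did not overlap. Each is printed 5′ to 3′ on the gene's own strand, ends 1 base before the start site, and has its CArG boxes in capitals: Srf at chr17:46556163-46556412, Actg1 at chr11:120348496-120348745 and, on the plus strand, Vcl at chr14:20929148-20929397 and Cnn2 at chr10:79988350-79988599. Srf and Actg1 lie on the minus strand.
Srf: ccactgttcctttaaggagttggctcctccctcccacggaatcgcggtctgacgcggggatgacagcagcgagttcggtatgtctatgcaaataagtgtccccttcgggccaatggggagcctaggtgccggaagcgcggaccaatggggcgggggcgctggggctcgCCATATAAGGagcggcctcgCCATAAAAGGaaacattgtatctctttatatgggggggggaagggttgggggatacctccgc
Actg1: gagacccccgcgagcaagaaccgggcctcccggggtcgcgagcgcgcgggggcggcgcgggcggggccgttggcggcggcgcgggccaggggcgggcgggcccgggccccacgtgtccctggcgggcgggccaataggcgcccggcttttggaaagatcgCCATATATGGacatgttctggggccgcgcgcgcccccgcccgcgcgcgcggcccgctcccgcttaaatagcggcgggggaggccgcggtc
Vcl: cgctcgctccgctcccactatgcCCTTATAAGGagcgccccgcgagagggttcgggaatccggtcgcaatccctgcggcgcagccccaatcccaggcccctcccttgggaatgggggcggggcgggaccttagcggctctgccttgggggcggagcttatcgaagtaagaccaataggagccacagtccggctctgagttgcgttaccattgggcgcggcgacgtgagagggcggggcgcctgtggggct
Cnn2: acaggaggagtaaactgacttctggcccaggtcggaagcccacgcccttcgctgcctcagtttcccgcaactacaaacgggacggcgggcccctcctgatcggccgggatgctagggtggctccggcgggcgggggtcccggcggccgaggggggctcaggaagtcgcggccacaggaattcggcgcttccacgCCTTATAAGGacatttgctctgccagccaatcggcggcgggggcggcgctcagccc

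Srf carried 2 boxes in tandem, CCATATAAGG and CCATAAAAGG, the first starting 82 and the second 62 bases before the start site. Actg1 had CCATATATGG starting 90 bases before its start. Vcl and Cnn2 shared the identical box CCTTATAAGG, 227 and 56 bases before the start. The other members with a box were Myl9, with CCTAATAAGG starting 161 bases before the start, and Fhl2, with CCTTATATGG 31 bases before one start and CCAAAAAAGG 96 bases before another. The median log2 difference was -0.56 over these 6 genes (range -0.88 to -0.15) and -0.30 over the 27 others with a promoter (range -1.09 to 0.24), so the ranges overlapped. Groups were apart on the lower side for 4 of the 6 and 11 of the 27, against 12.5% of all genes tested. The members were chosen with this contrast in view, so nothing is read from this split. A match to the box is not evidence of binding in this tissue, and a promoter without one may have it elsewhere.

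The short motif GGAATG (or CATTCC on the other strand), which TEAD factors bind, was found in 12 of the 33 member promoters (36.4%), in 26 of 110 (23.6%) of the other pathway genes and in 12.8% of the tested genes with a promoter. Cyr61, a known TEAD target, was among the 12. The others were Vcl, Flna, Mylk and Sh3pxd2b, with large differences, Mkl2, Lmod1, Tpm1 and Cald1, and Actn4, Tagln2 and Pfn1, with log2 differences of -0.08, -0.13 and -0.26. No window held a GGAATG overlapping a CArG box. As the members were chosen with the contrast in view, nothing is read from these shares or from the sizes of these differences. A match to this short motif is not evidence of binding in this tissue.

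The cytoplasmic actins had the highest FPKM of the group in the controls and lay below every control in each RAS sample; with RAS, Cfl1 was on a par with Actg1. Actb encodes beta-actin, on chromosome 5 (142903116 to 142906724), and was at 823, 740.4 and 913 FPKM in control and 530.1, 509 and 516 FPKM with RAS. Actg1 encodes gamma-actin, and its listed locus on chromosome 11 (120344309 to 120357156) is shared with 0610009L18Rik. Actg1 was at 512, 486 and 505 FPKM in control and 270.2, 309 and 331 FPKM with RAS. In neither gene did the groups come near each other. The RAS means of 518 ± 10.8 for Actb and 303 ± 30.8 for Actg1 stood 37.2% and 39.5% below the control means of 826 ± 86.3 and 501 ± 13.6. The log2 differences were -0.67 ± 0.17 and -0.73 ± 0.15 (SE). The longest reading frames of the 2 genes were identical at 88.7% of 1128 bases; whether reads were shared between them was not tested. The shared locus of Actg1 reaches beyond its start site, so the promoter printed above lies inside it. Actb is often used as a reference gene.

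**Figure D2:**
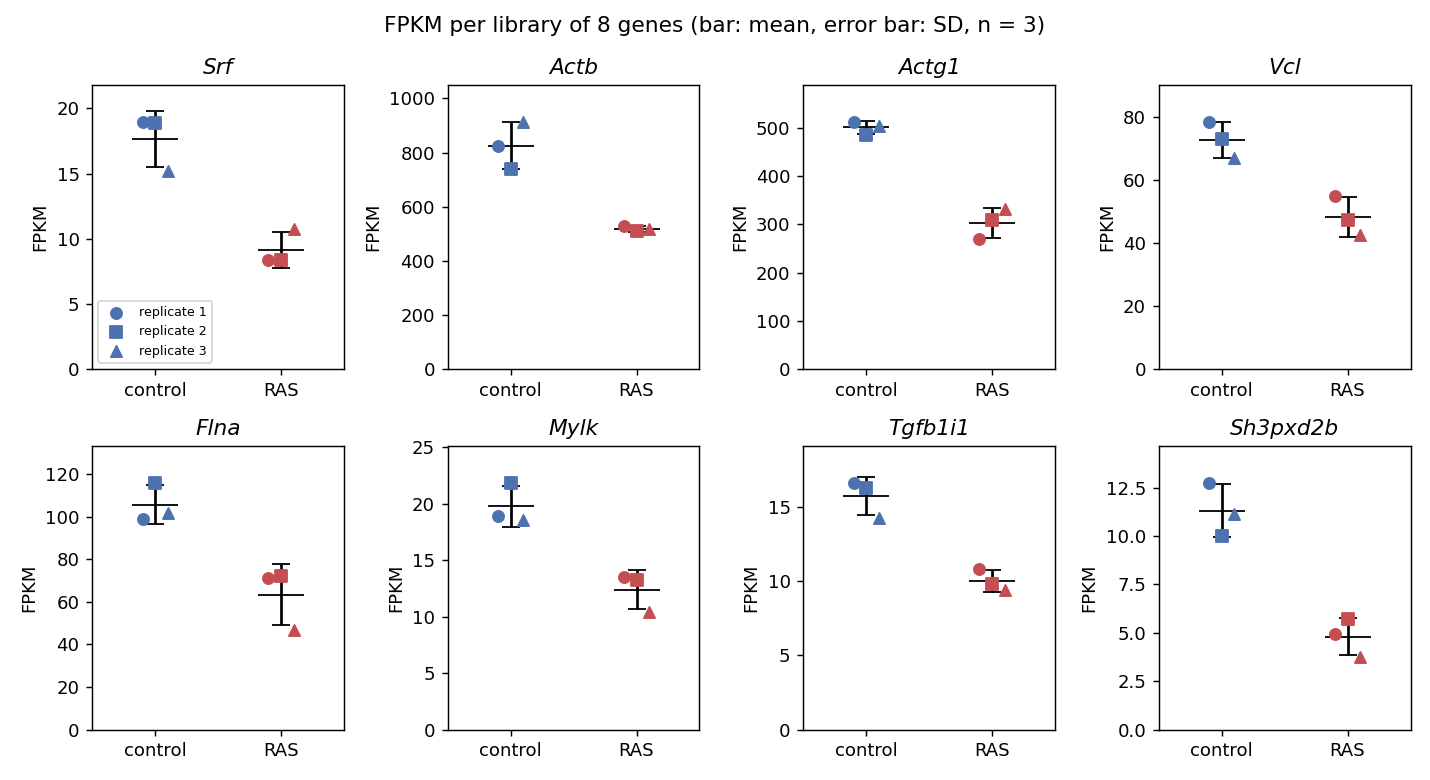
FPKM per library of 8 genes in control (blue) and RAS (red) samples; symbols stand for replicates 1 to 3, bars for the mean and error bars for the SD (n = 3), and each axis starts at 0. The 8 are among the 17 of 36 members (47.2%) whose groups do not overlap, against 12.5% of all genes tested on the lower side. By that choice the 3 RAS values lie under the 3 control values in each, for Srf at 8.34 to 10.7 against 15.2 to 19.0 FPKM.

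Genes that build, cut and cap actin filaments had smaller differences. Wdr1, which helps cofilin take filaments apart, was at 62.2, 57.2 and 58.3 FPKM in control and 47.4, 44.9 and 45.5 with RAS (log2 -0.36 ± 0.11). Pfn1, the monomer-binding profilin, was at 242, 211 and 225 FPKM in control and 193, 172 and 203 with RAS (log2 -0.26 ± 0.14). Groups were apart in these 2 of the 6 genes (33.3%), against 12.5% of all genes tested, and overlapped in the other 4. The filament-severing Cfl1 (334 ± 30.3 and 304.5 ± 33.7 FPKM) and its relative Dstn (145 ± 13.7 and 122 ± 14.5) had log2 differences of -0.14 and -0.25. Arpc5, a subunit of the branching Arp2/3 complex, was at 50.4 ± 6.56 and 47.1 ± 2.51 FPKM (log2 -0.09 ± 0.13). Capg, a capping protein that is abundant in macrophages, averaged 10.9 ± 1.01 FPKM in the controls and 13.6 ± 5.55 in the RAS samples, and only RAS 2, at 20.0 FPKM, stood high. The macrophage markers summed to 130.1 to 148 FPKM in control and 123 to 138 with RAS, with RAS 2 and RAS 3 both at 138.

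Tropomyosins coat filaments and set which myosins and severing proteins reach them. Tpm4 was at 162, 160.3 and 177 FPKM in control and 127, 102 and 138 with RAS (log2 -0.45 ± 0.16). Tpm1 was at 73.1, 91.5 and 99.3 FPKM in control and 65.8, 72.3 and 71.6 with RAS (log2 -0.32 ± 0.15). Groups were apart in both, 2 of 4 genes (50%) against 12.5% of all genes tested, for Tpm1 by less than 1 FPKM between control 1 and RAS 2. Tpm2 overlapped, at 10.8 to 15.8 FPKM in control and 10.3 to 12.3 with RAS. Tpm3 was at 31.9 and 29.7 FPKM in RAS 1 and 2 but at 73.5 in RAS 3, above every control (36.2 to 55.6), and its log2 difference was -0.63 without RAS 3 and 0.01 without RAS 2. Reading frames of the tropomyosins shared 73.2 to 78.8% of aligned bases.

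In the myosin group the kinase stood out. Mylk, the myosin light chain kinase that starts smooth muscle contraction, was at 18.9, 21.9 and 18.5 FPKM in control and 13.5, 13.3 and 10.4 with RAS, a RAS mean 37.3% below control (log2 -0.64 ± 0.14). Cald1, the actin-binding caldesmon, was at 66.7, 61.2 and 62.8 FPKM in control and 58.6, 51.3 and 44.8 with RAS (log2 -0.30 ± 0.14). Groups were apart in these 2 of the 5 genes (40%), against 12.5% of all genes tested. Myh9, the heavy chain of non-muscle myosin IIA, was at 92.8 ± 9.40 and 73.3 ± 12.4 FPKM (log2 -0.34 ± 0.16), with RAS 1 at 86.8 above control 1 at 82.0. The light chain Myl9 (96.0 ± 19.3 and 85.4 ± 5.38 FPKM) and the filament nucleator Lmod1 (3.28 ± 1.30 and 2.28 ± 0.34) were each lowest in control 1. Lmod1 rested on 154 reads in its thinnest library, and its log2 difference of -0.34 was -0.62 without control 1.

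Of the calponin family, Cnn2 was at 41.0, 46.6 and 51.2 FPKM in control and 28.4, 28.4 and 38.4 with RAS (log2 -0.54 ± 0.16). Cnn3 was at 40.8, 42.6 and 42.0 FPKM in control and 34.6, 31.2 and 40.1 with RAS (log2 -0.25 ± 0.13). Both sets were apart, 2 of 3 genes (66.7%) against 12.5% of all genes tested, though RAS 3 came close to control in each. Tagln2, the transgelin of non-muscle cells, was at 150.3 ± 16.0 and 139 ± 31.4 FPKM and was highest of all in RAS 3, at 174 FPKM.

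Of the 8 crosslinker and adhesion plaque genes, 5 (62.5%) were among the 13 members with an unadjusted p under 0.05 in limma. The share of all genes tested on that lower side was 6.41%. Flna, the filamin that links filaments into a mesh, was at 98.9, 116 and 102 FPKM in control and 71.3, 72.1 and 47.0 with RAS (log2 -0.75 ± 0.19). Vcl, vinculin of the adhesion plaque, was at 78.4, 72.9 and 66.9 FPKM in control and 55.0, 47.4 and 42.5 with RAS (log2 -0.59 ± 0.14). Both were well apart between groups. Actn1, the alpha-actinin of stress fibres, was at 18.7, 20.2 and 20.3 FPKM in control and 15.4, 12.6 and 12.9 with RAS (log2 -0.50 ± 0.11). Its paralog Actn4 was level, at 118 ± 10.5 and 112 ± 14.7 FPKM (log2 -0.08 ± 0.15). The difference between the 2 alpha-actinins was not tested. Zyx, zyxin, was at 49.7, 71.8 and 58.5 FPKM in control and 42.1, 48.0 and 46.4 with RAS (log2 -0.38 ± 0.16). Control 1 was the low control for Zyx, and the gap to RAS 2 was small. The integrin-binding Tln1 (43.1 ± 1.96 and 36.9 ± 7.16 FPKM) and the LIM protein Pdlim7 (26.1 ± 2.90 and 24.3 ± 2.11) overlapped.

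Sh3pxd2b encodes TKS4, a scaffold of podosomes, the actin-rich feet with which cells degrade matrix, and lies on chromosome 11 (32347811 to 32428183). It had the largest difference of the group. It was at 12.8, 10.0 and 11.1 FPKM in control and 4.95, 5.69 and 3.77 with RAS. Every RAS value was below 6 FPKM and every control value at 10 or more. The RAS mean of 4.80 ± 0.97 FPKM stood 57.5% below the control mean of 11.3 ± 1.37 (log2 -1.09 ± 0.15).

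LIM coregulators bring SRF together with other factors or shuttle between adhesions and the nucleus. Tgfb1i1, also called HIC-5, was at 16.6, 16.3 and 14.3 FPKM in control and 10.8, 9.79 and 9.42 with RAS (log2 -0.60 ± 0.11), apart between groups. Csrp1 was at 135 ± 35.8 and 97.9 ± 23.9 FPKM and overlapped, with control 2 high at 175. Fhl2 was at 4.04 ± 0.99 and 3.47 ± 0.66 FPKM on as few as 54 reads in a library.

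The secreted proteins Ctgf and Cyr61, targets of both MRTF-SRF and YAP-TEAD, had the largest errors of the 36. Cyr61 was at 38.9, 48.0 and 50.5 FPKM in control and 30.8, 14.9 and 68.8 with RAS. Ctgf was at 9.26, 25.7 and 22.9 FPKM in control and 18.4, 8.38 and 24.5 with RAS. RAS 2 was lowest in both genes and RAS 3 was above every control for Cyr61, and the groups overlapped. Their log2 differences of -0.51 ± 0.48 and -0.17 ± 0.46 (SE) were close to or smaller than their errors. That of Cyr61 was 0.02 without RAS 2 and -1.05 without RAS 3, and that of Ctgf 0.25 without RAS 2 and -0.60 without control 1.

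Averaged over the 36 genes, each library's mean deviation from the gene means separated the groups. It was 0.09, 0.24 and 0.22 in controls 1 to 3 and -0.18, -0.23 and -0.15 in RAS 1 to 3 on the log2 scale, while the mean over all genes tested lay between -0.04 and 0.04. Control 1 was the lowest control in 18 of the 36 genes. The actins ran from 0.25 to 0.43 in control and from -0.41 to -0.29 with RAS, and the crosslinkers and adhesion genes from 0.18 to 0.27 and from -0.42 to -0.10. The tropomyosins and the calponin family overlapped between groups through RAS 3, at 0.12 in each, and the secreted proteins through RAS 1 and RAS 3, at -0.08 and 0.68.

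**Figure D3:**
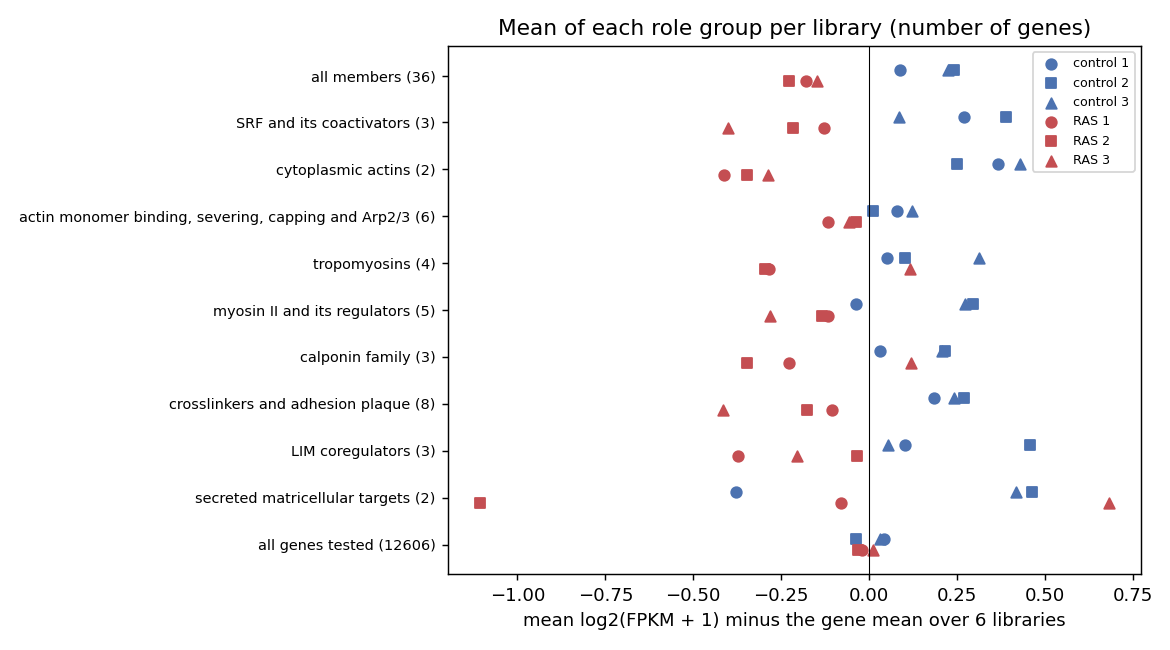
Mean log2(FPKM + 1) minus the gene mean over 6 libraries, for all 36 genes, each role group and all genes tested; each point is 1 library, blue for control and red for RAS. Actins and adhesion genes separate by group, the secreted proteins spread from -1.11 in RAS 2 to 0.68 in RAS 3, and all genes tested stay between -0.04 and 0.04.

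Within the RAS group the order of the libraries changed with transcript length. For the 9 members with a transcript over 4 kb, among them Flna, Myh9, Tln1, Mylk, Mkl2 and Sh3pxd2b, RAS 3 had a median deviation of -0.46 against -0.10 and -0.16 in RAS 1 and 2. For the 11 members under 2 kb, RAS 3 stood at -0.04 and RAS 1 and 2 at -0.17 and -0.08. The same slope ran through all genes tested, where RAS 3 went from 0.20 under 2 kb to -0.17 over 4 kb while control 2 went the other way, from -0.14 to 0.04. The share of genes lower with RAS was 40.7% under 2 kb and 70.1% over 4 kb, against 10 of 11 and 9 of 9 members. Without RAS 3 the median log2 difference of the members was -0.30 under 2 kb, -0.43 at 2 to 4 kb and -0.24 over 4 kb, against -0.04, -0.06 and -0.03 for all genes. With all libraries the members stood at -0.17, -0.35 and -0.36. This split by length was made after the values were seen, and the part of this slope in the members' differences was not tested.

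**Figure D4:**
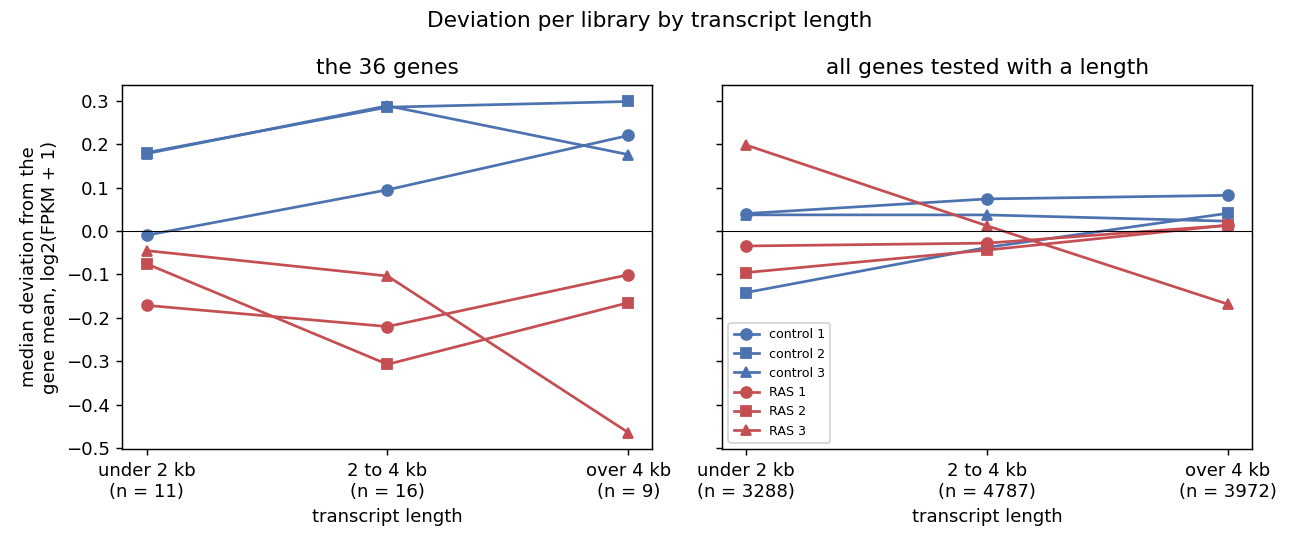
Median deviation from the gene mean in log2(FPKM + 1), per library and class of transcript length, for the 36 genes (left) and all genes tested with a length (right); lines join the classes of 1 library. RAS 3 slopes down in both panels, from 0.20 to -0.17 over all genes, while the controls of the 36 genes lie above the RAS samples in each class.

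Of 139 other genes of the actin and SRF pathway, 128 were tested and 0 passed the adjusted threshold in limma. Means were lower with RAS for 97 (75.8%), against 57.0% of all genes tested, and higher for 31. Their median log2 difference was -0.14, against -0.04 for all genes tested. The 57.0% is also the background for the counts of lower means per list below. These lists were chosen with earlier results of these data known. Groups were apart on the lower side for 30 (23.4%) and on the higher side for 5 (3.91%), against 12.5% and 5.42% of all genes tested. An unadjusted p under 0.05 was found for 23 (18.0%) on the lower and 3 (2.34%) on the higher side, against 6.41% and 3.86%. Other crosslinkers and focal adhesion genes held the most of these, with 8 of 34 (23.5%) on the lower and 1 (2.94%) on the higher side. By the sign of the mean, 25 of the 34 were lower with RAS and 9 higher. There the bundling protein Fscn1 was at 35.1 ± 3.02 and 21.6 ± 1.97 FPKM (log2 -0.68 ± 0.12), the fibronectin receptor subunit Itga5 at 14.8 ± 1.70 and 10.9 ± 0.33 (log2 -0.40), and the filament elongator Vasp at 31.3 ± 1.32 and 22.1 ± 4.74 (log2 -0.50). Partners of Sh3pxd2b in podosomes were split 4 lower and 3 higher, with the paralog Sh3pxd2a at 69.1 ± 25.5 and 38.4 ± 11.3 FPKM, the metalloprotease Adam19 at 6.61 ± 0.48 and 4.27 ± 0.61, and the adaptor Nck2 at 8.58 ± 1.63 and 6.55 ± 0.61.

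Among Arp2/3 subunits and nucleators, 14 of 18 were lower and 4 higher, led by Daam1, a formin (8.25 ± 0.26 and 5.60 ± 0.52 FPKM, log2 -0.49), Actr3, the Arp3 subunit (65.9 ± 2.70 and 51.9 ± 3.91, log2 -0.34), and the formin Diap1 (log2 -0.26). Of the genes for monomer binding, capping and turnover, 18 of 21 were lower and 3 higher, with Coro1c, a coronin, at 31.7 ± 0.81 and 23.1 ± 1.49 FPKM (log2 -0.44), the cofilin kinase Limk1 at a log2 difference of -0.36 and the capping subunit Capza1 at -0.36.

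Other SRF cofactors were 3 lower and 3 higher of 6 tested. The ternary complex factor Elk1 was at 7.88 ± 0.99 and 5.53 ± 0.88 FPKM (log2 -0.45) and Elk4 at a log2 difference of -0.24, while the LIM protein Fhl1 was at 100.2 ± 11.1 and 146 ± 40.9 (log2 0.50). In the YAP-TEAD list, 8 of 11 were lower and 3 higher. Yap1, the coactivator, was at 27.6 ± 3.40 and 18.9 ± 1.13 FPKM (log2 -0.52), its binding partner Amotl1 at 30.9 ± 0.69 and 22.9 ± 4.23 (log2 -0.43), and Tead1, the DNA-binding partner, at 19.0 ± 6.46 and 28.3 ± 2.72 (log2 0.60).

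Smooth muscle relies on SRF for its contractile genes, and most of its markers also had lower means with RAS. The 10 smooth muscle markers summed to 381 to 535 FPKM in control and 306 to 378 with RAS. Of the 9 tested, 8 were lower and 1 higher, and their median log2 difference was -0.58. Their mean deviation on the log2 scale overlapped between groups, at -0.16 to 0.49 in control and -0.59 to 0.12 with RAS. Groups were apart on the lower side for 1 of the 9 (11.1%), against 12.5% of all genes tested. Acta2, smooth muscle actin, was at 192 ± 35.9 and 132 ± 11.8 FPKM, with the groups apart. Among smooth muscle SRF targets 6 of 7 were lower and 1 higher, with Mrvi1 at 7.11 ± 2.69 and 3.83 ± 0.67 FPKM, Ppp1r12b at 2.94 ± 0.43 and 1.83 ± 0.69, and Myh11, the smooth muscle myosin, at 23.5 ± 5.41 and 15.7 ± 5.95. Myocd, the smooth muscle coactivator of SRF, was at 0.05 to 0.30 FPKM and was not tested. Of the 4 other actin genes all had lower means, Acta1 (127 ± 56.9 and 38.4 ± 19.5) and Acta2 with groups apart and Actg2 (16.2 ± 10.7 and 8.01 ± 7.52) overlapping. Apart were thus 2 of the 4 (50%), against 12.5% of all genes tested. Control 1 was the lowest control both in the smooth muscle sum, at 381 FPKM, and in the mean deviation of the 36 genes, at 0.09. The part of muscle cells in the members' difference was not tested.

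The 10 skeletal muscle markers summed to 70.4 to 207 FPKM in control, highest in control 1, and to 23.1 to 61.7 with RAS. Acta1 made up most of both sums. For the other tested markers, Mylpf, Tnni2 and Tnnc2, the groups overlapped, and each was highest in control 1. Ckm was at 0.06 to 3.08 FPKM and Myh4 was listed at 0 in 3 libraries. The 8 fat cell markers, of which Fabp4 made up the most, summed to 32849 to 37084 FPKM in control and 42415 to 61908 with RAS. Single fat cell markers did not share 1 direction: Fabp4, Cidec and Lipe were higher with the groups apart, Lep was lower with the groups apart (log2 -0.63), and Adipoq, Plin1, Pparg and Cfd overlapped. Apart were thus 37.5% of the 8 on the higher and 12.5% on the lower side, against 5.42% and 12.5% of all genes tested. The mean deviation of the 8 on the log2 scale also overlapped, at -0.16 to 0.09 in control and -0.02 to 0.20 with RAS. Fibroblast markers (1825 to 2358 and 1353 to 2075 FPKM), endothelial markers (219 to 278 and 214 to 258) and mesothelial markers (31.0 to 249 and 99.1 to 158) overlapped. Brown or beige fat cell markers (53.2 to 313 and 139 to 967 FPKM) were highest in RAS 3, and liver markers (9.69 to 163 and 9.71 to 14.1 FPKM) in control 3. These sums overlapped too. All 5 brown or beige markers tested had higher means with RAS. Of these, 2 (40%), Cidea and Elovl3, were apart on that side, against 5.42% of all genes tested. Elovl3 was at 0.03 to 0.62 FPKM outside RAS 3. The part of cell makeup in these differences was not tested.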

How the data were processed

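Poly(A) RNA-seq was made from the 6 adipose samples, 3 per group. The authors deposited FPKM per gene and sample, and a count signal per gene scaled by 1 factor per sample; per the submitters' processing notes, which give no roles, the tools included TopHat2 2.0.9 and Cufflinks 2.1.1, and build and annotation were not given in the sources used here. Loci of all 36 genes overlapped the same Ensembl gene in GENCODE M21 (GRCm38), and coordinates are the table's, counted from 1. The label text ties 1 set of numbered columns to RAS feeding, and the other set was taken as control by elimination; 4 columns of group values were not used. Of low values of the deposited count signal, 99.5 to 99.7% were within 0.1 of whole reads, but 1 to 4 values per column lay far under 1 read, so it was not treated as counts and no count model was run.

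Genes averaging 1 FPKM or more were fitted with limma (trended moderation, two-sided, Benjamini-Hochberg over 12606 genes, threshold 0.05) on log2(FPKM + 1), a scale that understates the change of low genes; the fit was tested on simulated data. No step that keeps strand is described, so reads of overlapping genes may mix. Besides Mkl1 and Actg1, the members Mylk, Actn4, Tagln2, Arpc5 and Cald1 shared their listed locus with other genes. The members, the lists of other genes and the rule for naming them (all members; per library values for Srf, Mkl1, Mkl2, Actb, Actg1, Sh3pxd2b and members with groups apart; up to 3 genes of smallest p per pathway list; any marker) were chosen with earlier results of these data known. Mkl1, Mkl2, Ctgf and Cyr61 are printed under the older symbols of the table. Other values named per library were picked after they were seen. Alternatives were a pseudocount of 0.1, no minimum or a minimum of 5 FPKM, quantile normalization, median-ratio size factors, the replicate number as a block, each library left out, and, added after seeing the data, the count signal and 2 libraries left out together. The result of 1 list of other pathway genes is not reported here. Versions were R 4.3.3, limma 3.58.1, Python 3.11.15, pandas 2.3.3, numpy 2.4.6 and matplotlib 3.10.9.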

Additional observations from a re-analysis of the deposited data

How the results depend on the processing

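Most members had the lower mean with RAS in each alternative run: 32 to 35 members were lower when each library was left out in turn, and 35 of 36, or 33 of 34 tested, in every other alternative. Without RAS 2 the means of Tpm3, Tagln2 and Cyr61 turned higher and those of Capg and Ctgf turned too; Ctgf also turned without control 2 or control 3. The sign held in all 14 alternatives for 31 members. The median log2 difference of -0.33 ran from -0.43 (without control 1) to -0.27 (without control 2), and was -0.44 without control 1 and RAS 3 together. In that last fit 28 members were apart between groups, against 26.1% of all genes with so few libraries. An unadjusted p under 0.05 in limma was found on the lower side for 22 members, against 7.39% of all genes. Control 1 and RAS 3 had the mean deviations of the 36 genes nearest the other group, 0.09 and -0.15. Leaving them out, a choice made after seeing the data, widens the mean difference by construction, so nothing is read from these counts. The number of genes past the adjusted threshold was 0 to 2 with each library left out and 3 without control 1 and RAS 3, and none was a member. Median-ratio size factors moved the split of genes at an unadjusted p under 0.05 from 486 higher and 808 lower to 684 and 623, and the members apart from 17 to 14, while the share of all genes apart on the lower side went from 12.5% to 9.04%. With the replicate number as a block, 0 genes passed and 17 members, against 13, had an unadjusted p under 0.05 on the lower side, as did 8.15% of all genes, against 6.41%. Same-numbered samples correlated at 0.18, 0.10 and 0.22 in their deviations from the group means, and each sample correlated best with its own number, a hint from the data and not from the labels. The planned edgeR and DESeq2 fits were not run, since whole reads could not be recovered from every column of the count signal. Samples of 3 per group limit the precision, and Fhl2 rested on as few as 54 reads.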
